A study of Mus musculus with 12 samples.

Results

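The 9 genes described here make, carry, clear and sense retinoic acid in the embryonic mouse neural tube: the synthesizing enzymes Aldh1a1, Aldh1a2 and Aldh1a3, the cellular binding proteins Crabp1 and Crabp2, the degrading enzyme Cyp26b1, and the nuclear receptors Rara, Rarb and Rarg. They were chosen by name, and every probe set that the array annotation gives to 1 of them alone was taken, which made 12 of 45101 probe sets and 9 of 18193 annotated genes. The arrays were Affymetrix mouse expression arrays hybridized with RNA from sorted cells of E12.5 embryos. Every embryo had the transgene ePet-EYFP, whose enhancer switches on yellow fluorescent protein (YFP) in serotonin (5HT) neurons. Cuts at the mesencephalic flexure, the pontine flexure and the cord divided each neural tube into a rostral and a caudal portion. Cells were then sorted into 4 groups, which are rostral serotonin neurons with YFP (R+), the rostral cells without it (R-), and their caudal counterparts (C+ and C-), with 3 arrays in each group and 200000 cells behind each array. The YFP-negative groups are labelled as neurons that are not serotonergic, but the only sorting criterion the labels give is YFP, so they may hold any YFP-negative cell of the dissected tissue. The labels call the replicates biological and do not say how many embryos were pooled or whether litters were separate, so the p-values measure the spread between these 3 preparations.

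Retinoic acid is made from retinol in a pair of oxidation steps, the second of them carried out by the Aldh1a enzymes. In the cytoplasm it is held by the Crabp proteins, of which Crabp2 is known to pass the ligand to nuclear receptors and Crabp1 to sequester it or channel it to breakdown. Cyp26 enzymes oxidize it, and receptors of the Rar family, paired with retinoid X receptors, switch genes on when it is bound. In the developing hindbrain and spinal cord the acid comes mainly from the paraxial mesoderm and meninges beside the neural tube, and it patterns the hindbrain along its length by setting the anterior limits of Hox genes.

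Crabp1, Crabp2 and Cyp26b1 were lower in YFP-positive than in YFP-negative cells of both portions, by 9.13-fold and 9.94-fold for Crabp1, 5.58-fold and 6.54-fold for Crabp2, and 1.86-fold and 2.25-fold for Cyp26b1 in the rostral and caudal portions. Crabp1 was also lower rostrally than caudally in both kinds of cell, by 3.66-fold between R+ and C+ and by 3.99-fold between R- and C-, calls that are lost when a sign of RNA quality, which separates the portions, is added as a covariate (adjusted p = 0.223 and 0.115). Rarb, the receptor gene whose promoter holds the classical retinoic acid response element, had its highest signals on the 3 C- arrays and was 3.15-fold lower in C+ than in C-, a call that many other settings lose. Of the synthesizing enzymes only Aldh1a3 was bright enough to be tested, and it passed in no comparison. Rarg was tested and passed in none, while Aldh1a1, Aldh1a2 and Rara were too dim to test. Because these are bulk samples, fewer cells of a type and less RNA per cell cannot be told apart.

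Of the 12 probe sets, 6 exceeded 107, the array-wide median signal, on at least 3 arrays and entered the test: 1 each for Crabp1, Crabp2, Cyp26b1 and Rarb, 1 of 2 for Rarg and 1 of 3 for Aldh1a3. The single probe sets of Aldh1a1, Aldh1a2 and Rara, the other Rarg probe set and the other 2 for Aldh1a3 were too dim. Differences are log2 of the signal plus an offset of 10, fitted with limma over all 26061 probe sets that passed this filter, and a call is an adjusted p (Benjamini-Hochberg over those probe sets) under 0.05. The offset makes the folds of dim probe sets too small. In R+ against R-, 3 of the 6 were lower and 0 higher, where 4.88% of all tested probe sets were lower and 2.79% higher. In C+ against C-, 4 of 6 were lower and 0 higher, against 4.64% and 3.56% of all. In R+ against C+, 1 of 6 was lower, against 2.39% of all, and 0 higher, against 1.38%. In R- against C-, 1 of 6 was lower, against 0.959% of all, and 0 higher, against 0.533%. In the difference of differences, which is R+ against R- minus C+ against C-, 0 of 6 were called by limma, 1 had an unadjusted p under 0.05, and 0.522% of all probe sets were called. The median log2 differences of the 6 were -0.61, -1.41, 0.22, -0.84 and 0.33 in the order of those 5 comparisons, beside medians over all tested probe sets of 0.016, -0.019, -0.015, -0.026 and 0.007.

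The labels of the sorted groups matched serotonin markers. All 8 listed serotonin genes were higher in the YFP-positive cells of both portions, with summed signals of 77382 to 84890 and 52816 to 57416 in R+ and C+, but 4718 to 5097 and 2258 to 3350 in R- and C-. Several other cell types moved the opposite way. Of 9 neural progenitor genes, 8 were lower in R+ than in R- and 7 lower in C+ than in C-. Of 4 tested red blood cell genes, all 4 were lower in both. The 5 on the array summed to 8708 to 15585 and 4804 to 8716 in R+ and C+, but to 45130 to 59155 and 40507 to 44980 in R- and C-. The beta-actin 3'/5' ratio, which compares probe sets at both ends of that transcript as a sign of RNA length, was 3.38 ± 0.613 (SD, n = 6, range 2.64 to 4.39) on rostral arrays and 5.77 ± 1.31 (SD, n = 6, range 4.52 to 7.69) on caudal arrays, so that the portions did not overlap. Arrays with the same replicate number deviated together, and with the number as a block the count of probe sets called went from 1999 to 3740 in R+ against R-, from 2136 to 4279 in C+ against C-, from 984 to 4327 in R+ against C+, from 389 to 1770 in R- against C- and from 136 to 419 in the difference of differences.

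Crabp1 (probe set 1448326_a_at) had its lowest signals in R+ and its highest in C-. In replicates 1, 2 and 3 the signal was 250, 229 and 667 in R+ against 2743, 3062 and 3776 in R-, and 914, 1550 and 1421 in C+ against 13687, 11332 and 13039 in C-. The group means were, in that order, 382 ± 247, 3194 ± 529, 1295 ± 336 and 12686 ± 1217 (SD, n = 3 each). No 2 groups overlapped, and the order from low to high was R+, C+, R- and C-. R+ against R- gave -3.19 ± 0.32 (SE) with an adjusted p of 2.58e-05 (limma), and C+ against C- gave -3.31 ± 0.32 with 1.50e-05. Replicate by replicate these differences were -3.40, -3.68 and -2.48 rostrally and -3.89, -2.86 and -3.19 caudally. The rostral and caudal differences were themselves not shown to differ, at 0.12 ± 0.46 with a 95% interval of -0.86 to 1.11 and an adjusted p of 1.00 (limma).

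The rostral to caudal step in Crabp1 was of like size in both kinds of cell. R+ against C+ gave -1.87 ± 0.32 with an adjusted p of 0.00516, and R- against C- gave -1.99 ± 0.32 with 0.00523 (limma). All 3 replicates ran the same way in each, with -1.83, -2.71 and -1.08 between the YFP-positive groups and -2.31, -1.88 and -1.79 between the YFP-negative ones. The beta-actin ratio separates the portions in the same direction, and with its log2 value as a covariate these differences were -1.37 ± 0.45 (adjusted p = 0.223) and -1.58 ± 0.41 (adjusted p = 0.115), neither past the threshold. With the covariate and the replicate block together they were -1.96 ± 0.51 (adjusted p = 0.147) and -2.07 ± 0.44 (adjusted p = 0.0659). How much of the step belongs to RNA quality was not tested beyond that.

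Crabp2 (1451191_at) separated the sorted classes but not the portions. Its signals in replicates 1, 2 and 3 were 962, 927 and 1618 in R+ against 7363, 5186 and 6716 in R-, and 1104, 757 and 665 in C+ against 6529, 4644 and 5300 in C-. Every YFP-positive array lay below every YFP-negative one, while R+ overlapped C+ and R- overlapped C-. Group means were 1169 ± 389, 6422 ± 1118, 842 ± 232 and 5491 ± 957 (SD, n = 3 each). The difference was -2.48 ± 0.24 (SE) in R+ against R-, with an adjusted p of 1.67e-05, and -2.71 ± 0.24 in C+ against C-, with 6.25e-06 (limma). Between portions it was 0.45 ± 0.24 for the YFP-positive cells (95% interval -0.06 to 0.97, adjusted p = 0.329) and 0.22 ± 0.24 for the YFP-negative cells (-0.29 to 0.74, adjusted p = 0.789). Without replicate 1 of every group the first of these was 0.78 with an adjusted p of 0.0456, higher in R+.

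**Figure D1:**
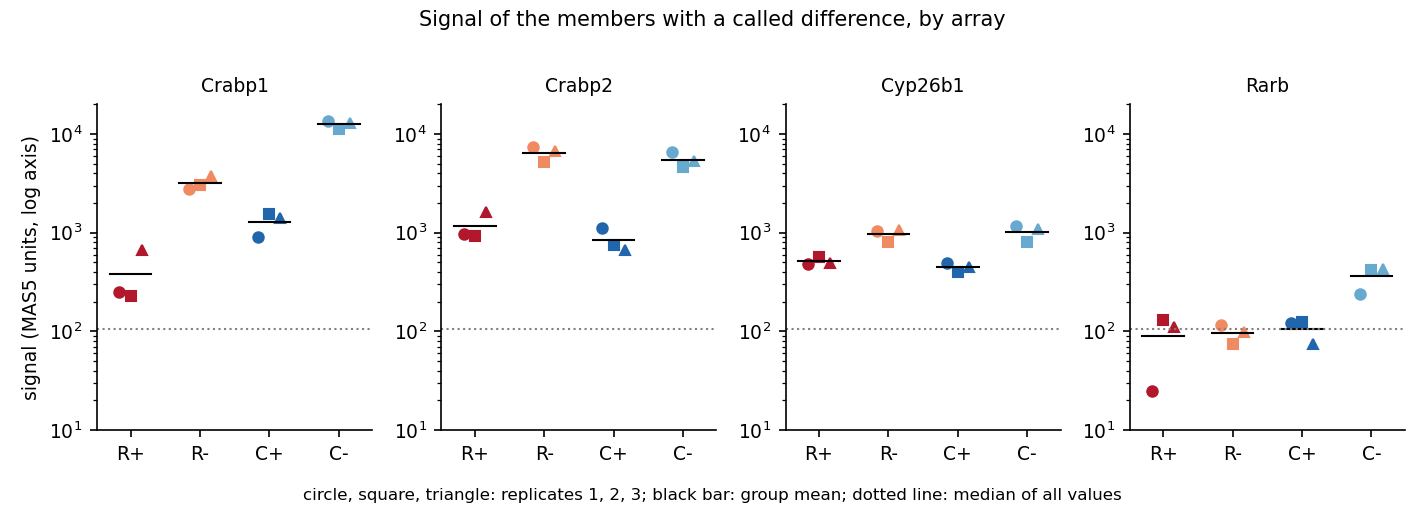
Signal on each of the 12 arrays (log axis) for the 4 genes called in at least 1 comparison, by group, with circles, squares and triangles for replicates 1, 2 and 3, a bar at the group mean and a dotted line at the array-wide median of 107. Crabp1 falls into 4 separate levels from 382 in R+ to 12686 in C-, Crabp2 and Cyp26b1 into a YFP-positive and a YFP-negative level, and Rarb stands higher on all 3 C- arrays than on any other array.

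Crabp1 was then set against Crabp2 on the same array. The log2 ratio of Crabp1 to Crabp2 signal averaged -1.71 ± 0.39 over the R+ arrays (range -1.97 to -1.27), -1.0 ± 0.36 over the R- arrays (-1.42 to -0.76), 0.61 ± 0.76 over the C+ arrays (-0.27 to 1.08) and 1.22 ± 0.13 over the C- arrays (1.07 to 1.30), with SD and n = 3 each. The 6 rostral arrays all lay below the 6 caudal ones, with a mean difference of -2.27. This ratio was chosen after the values were seen, so it is given with no test, and only its change between groups can be read, since signals of different probe sets are not comparable as levels.

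Markers of cells that could carry Crabp RNA moved with the same comparisons. Neural progenitor genes summed to 18802 to 20674 and 19606 to 26113 in R+ and C+, but to 45460 to 56074 and 48610 to 49428 in R- and C-. Of 4 measured neural crest and sensory neuron genes, the transcription factor genes Foxd3 and Pou4f1 were lower in YFP-positive cells of both portions. The other 2 did not pass. Prph was -2.61 ± 0.77 rostrally (adjusted p = 0.0582) and -0.06 ± 0.77 caudally (adjusted p = 0.981, limma). Sox10, a crest factor, differed in sign, at 0.72 ± 0.35 rostrally (adjusted p = 0.307) and -0.76 ± 0.35 caudally (adjusted p = 0.251, limma). Their list, most of whose signal in R- and C- is Pou4f1 (means 2068.3 and 5013), summed to 388 to 751 in R+ and then, in rising order, 646 to 1002 in C+, 2280 to 3043 in R- and 5019 to 6705 in C-, with R+ and C+ overlapping. R+ replicate 3, the array with the highest Crabp1 (667) and Crabp2 (1618) of its group, also had the highest sum of that list in R+ (751). The same array had the highest progenitor sum (20674), the highest red blood cell sum (15585) and the lowest serotonin sum (77382) of R+. For the crest and sensory list the other groups ran differently. In R-, C+ and C- the array with its highest sum (3043, 1002 and 6705) had the lowest Crabp2 (5186, 665 and 4644). Crabp1 was lowest on that array only in C- (11332). The progenitor sum was highest on the array with the highest Crabp2 in R- (56074) and C- (49428). In C+ the array with the highest Crabp2 (1104) had the lowest progenitor sum (19606). The highest Crabp1 fell on the array with the highest progenitor sum in R+, C+ and C-. In R- it fell on the array with the lowest (45460). The part of these cell types in the Crabp differences was not tested, nor was which cells the Foxd3 and Pou4f1 signals came from.

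Across the 12 arrays, the tested probe sets of other genes most like Crabp1 were a pair for Zic1, a transcription factor of dorsal neural tissue (Pearson r = 0.988 and 0.985), and 1 for Ptn, a secreted growth factor (0.976). Those most like Crabp2 were Mab21l1 (0.993), Ebf1, a transcription factor of early neurons (0.990), and Cdk2ap1 (0.990). These coefficients rest on 4 groups and so mostly describe the group means.

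Cyp26b1 (1460011_at), which breaks retinoic acid down, followed the sorted classes with a smaller step. Signals in replicates 1, 2 and 3 were 484, 563 and 490 in R+ against 1040, 808 and 1058 in R-, and 490, 401 and 448 in C+ against 1183, 805 and 1087 in C-. The 6 YFP-positive arrays all lay below the 6 YFP-negative ones, and the portions overlapped within each class. Means were 512 ± 44.0, 969 ± 139, 446 ± 44.5 and 1025 ± 196 (SD, n = 3 each). R+ against R- gave -0.90 ± 0.18 (SE, adjusted p = 0.00661) and C+ against C- gave -1.17 ± 0.18 (adjusted p = 8.95e-04), both by limma. Replicate 2 showed the smallest step in each portion, -0.51 rostrally and -0.99 caudally, against -1.09 and -1.09 and -1.25 and -1.26 in the other replicates. Between portions the difference was 0.20 ± 0.18 in YFP-positive cells (95% interval -0.20 to 0.59) and -0.07 ± 0.18 in YFP-negative cells (-0.46 to 0.32), neither past the threshold. The genes most like Cyp26b1 over the 12 arrays were Necab3 (r = 0.967), Cdk2ap1 (0.966) and Cblb (0.965), and Cdk2ap1 was also among the 3 most like Crabp2.

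**Figure D2:**
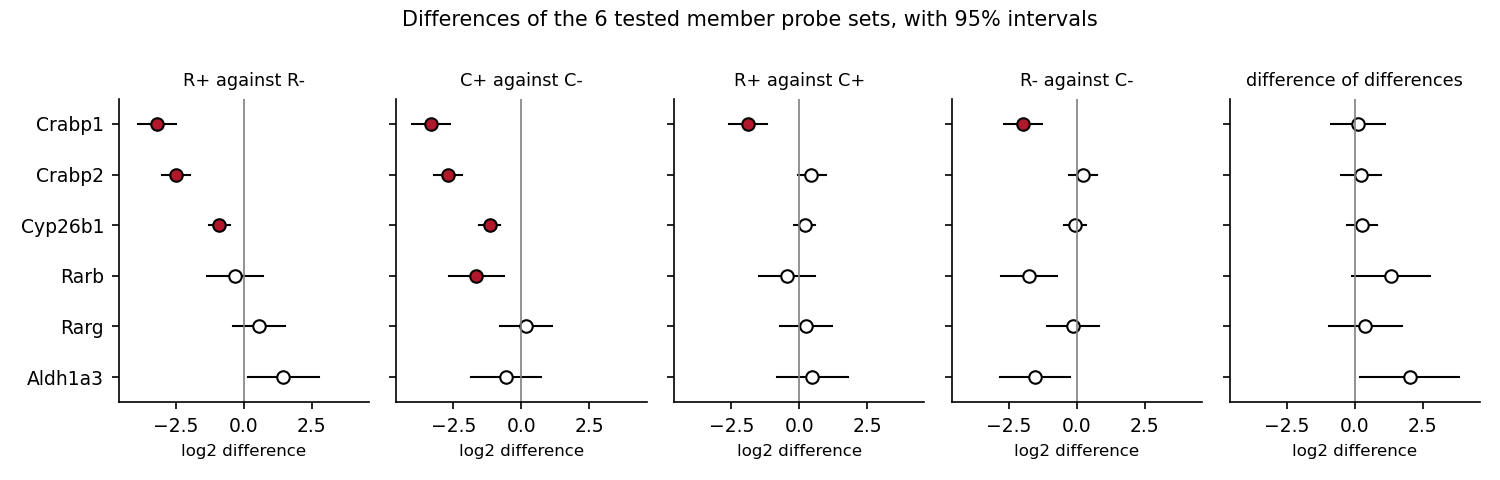
Log2 differences with 95% intervals for the 6 tested probe sets (rows) in the 5 comparisons (panels), with filled red points past the adjusted threshold and open points not past it. Crabp1, Crabp2 and Cyp26b1 lie left of 0 in both comparisons of sorted classes, Crabp1 alone is past the threshold in both comparisons of portions, and no point is filled in the difference of differences.

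Rarb is both a receptor and a target of retinoic acid, and its promoter is shown because it carries the element through which the ligand is known to induce the gene. These are the 250 bases before the start site in RefSeq's GRCm38.p6 annotation, chr14:16575477-16575726 on the minus strand, written 5′ to 3′ with the direct repeat of receptor half-sites in capitals.
Rarb: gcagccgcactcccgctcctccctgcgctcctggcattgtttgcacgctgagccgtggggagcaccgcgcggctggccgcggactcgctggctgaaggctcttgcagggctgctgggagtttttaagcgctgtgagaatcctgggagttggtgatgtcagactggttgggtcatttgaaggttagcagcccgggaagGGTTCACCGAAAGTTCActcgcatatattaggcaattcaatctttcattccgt

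The repeat ends 37 bases before the start site and begins 53 bases before it, on the strand of the gene. It was found by searching both strands of windows from 250 bases before to 50 bases after each start for the half-sites AGGTCA or AGTTCA or GGGTCA or GGTTCA, repeated in the same direction with 5, 2 or 1 bases between. With 5 bases between, 32 of 32851 promoters (0.0974%) held such a repeat. The shares were 0.268% with 2 bases and 0.222% with 1 base. The promoter table held 12 windows for 7 of the 9 genes, Aldh1a1, Aldh1a2, Cyp26b1, Rara, Rarb, Rarg and Crabp1, and among them only the Rarb window matched any of the 3 spacings. A match is a description of letters, and none of the arrays measured binding.

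Rarb (1454906_at) was high in caudal YFP-negative cells. Replicates 1, 2 and 3 read 25, 131 and 112 in R+ against 117, 75 and 99 in R-, and 123, 124 and 74 in C+ against 240, 418 and 427 in C-. The 3 C- arrays lay above the other 9, which overlapped one another around the array-wide median of 107. Means were 89.3 ± 56.5, 97 ± 21.1, 107 ± 28.6 and 362 ± 105 (SD, n = 3 each). C+ against C- gave -1.66 ± 0.47 (SE) with an adjusted p of 0.0473 (limma), lower in all 3 replicate pairs at -0.91, -1.68 and -2.38. The call is marginal: it was lost in 12 of 24 other settings, over which the adjusted p ran from 0.00316 to 0.167, and these included leaving out 1 array at a time in 9 cases (R+ replicate 3, each R- array, each C+ array, and C- replicates 2 and 3, with adjusted p from 0.0532 to 0.167).

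R- against C- was as large for Rarb, -1.77 ± 0.47, but did not pass the threshold (adjusted p = 0.101, limma). With the replicate number as a block it was -1.77 ± 0.44 with an adjusted p of 0.0273, and all 3 replicates showed it, at -0.98, -2.33 and -2.0. It also passed without R+ replicate 1, the array at 25 (adjusted p = 0.0136), without replicate 1 of every group (0.00763) and with an offset of 50 (0.0423). R+ against R- was -0.32 ± 0.47 (95% interval -1.34 to 0.70) and R+ against C+ was -0.44 ± 0.47 (-1.46 to 0.58), and both turned positive without R+ replicate 1, to 0.31 and 0.20. Whether the step between sorted classes differs between portions was not settled by the test of that difference, 1.33 ± 0.67 with a 95% interval of -0.11 to 2.77 and an adjusted p of 0.966. Without replicate 1 of every group that test gave 2.47 ± 0.51 and an adjusted p that rounds to 0.05, just past the threshold.

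Blood vessel and connective tissue genes stood beside Rarb on these arrays, but they were not the only listed genes highest in C-. The probe sets most like it over the 12 arrays were Cldn5, a tight junction protein of endothelium (r = 0.932), Bgn, a matrix proteoglycan (0.917), and Igsf11, an adhesion molecule (0.914). Of 6 tested endothelial genes, Kdr, a receptor for vascular growth factor, and Cldn5 were lower in C+ than in C- (adjusted p = 0.0499 and 0.0178, limma). In R- against C-, 0 passed (1 at an unadjusted p under 0.05, limma). The summed signal of all 8 listed endothelial genes was highest in C-, at 1129 to 1765, against 726 to 936 in C+, 900 to 1009 in R- and 788 to 847 in R+. Of 9 tested mesenchyme, meninges and pericyte genes, 5 were lower and 1, Dcn, was higher in C+ than in C-, and 2, Dcn and Rgs5, were lower in R- than in C-. The summed signal of the 14 listed was 5055 to 6070 in C-, 4028 to 4349 in C+, 2405 to 3225 in R- and 1063 to 1668 in R+. In that order 4, 6, 6 and 7 of the 14 were at or under 107 on all 3 arrays of the group. Dcn alone averaged 2345.3 ± 159 in C+, against 417 ± 111 in C-, 132 ± 38.5 in R- and 116 ± 46.1 in R+ (SD, n = 3 each). The C+ sum thus rests largely on that gene. The 7 motor neuron genes on the array were also highest in C-. They summed to 1607 to 2228 in C-, 945 to 1186 in R-, 534 to 804 in C+ and 506 to 611 in R+. The neural crest and sensory neuron list, led by Pou4f1, was highest in C- as well, at 5019 to 6705. The part of any of these cell types in the Rarb differences was not tested.

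**Figure D3:**
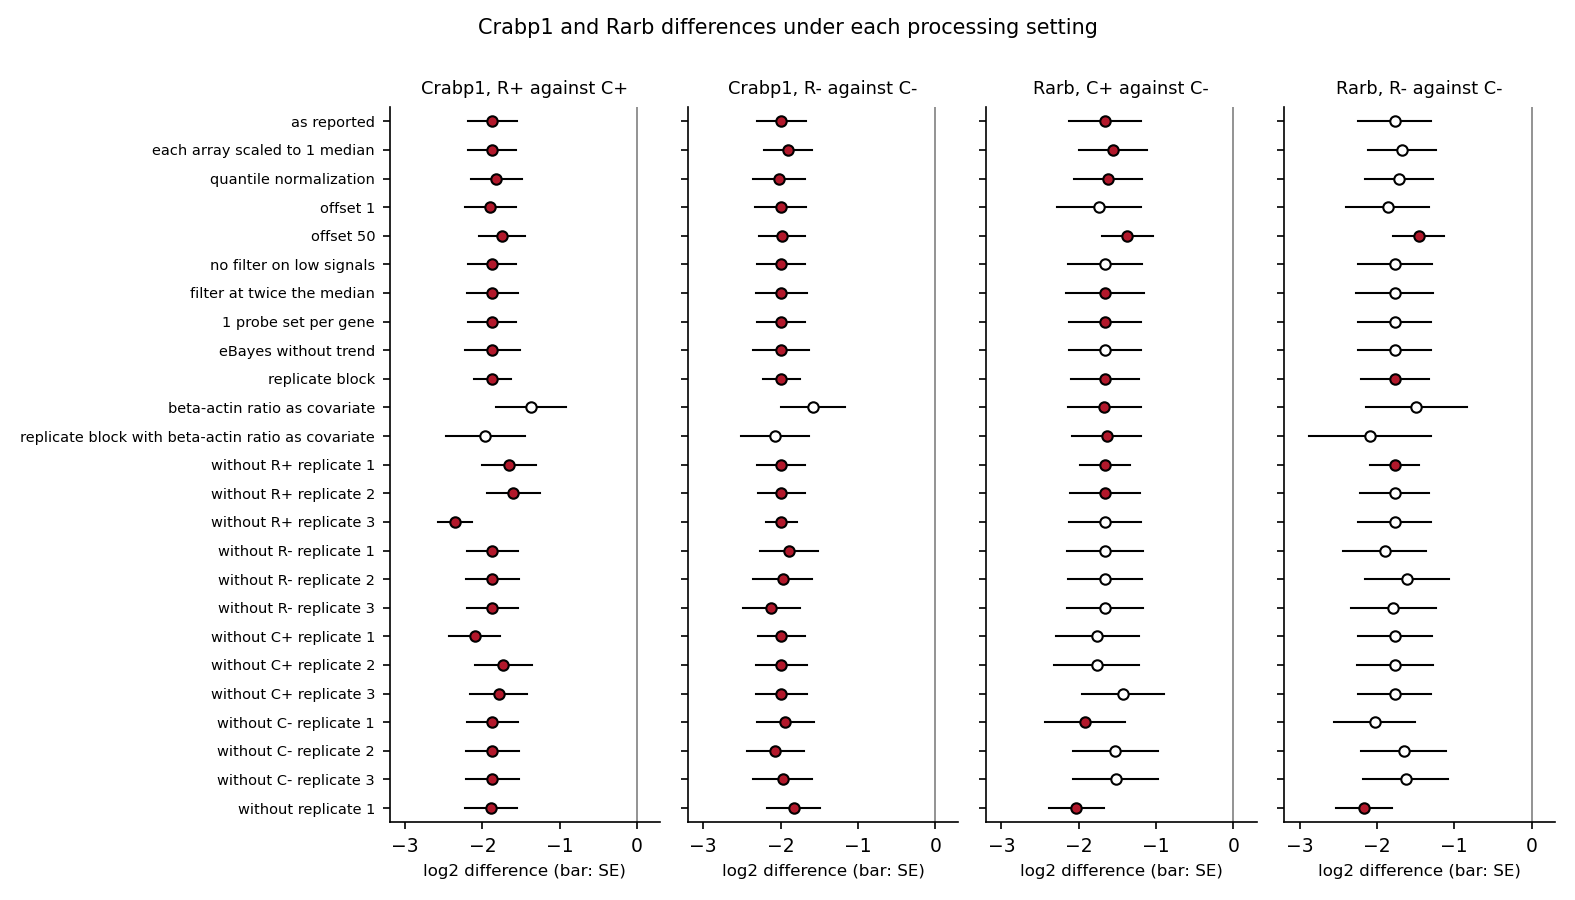
Log2 differences of Crabp1 between portions and of Rarb in C+ against C- and R- against C-, under the reported setting and 24 others, with bars for the SE and filled points past the threshold. Crabp1 is past it in 22 of 24 in each comparison, Rarb in 12 of 24 for C+ against C- and in 4 of 24 for R- against C-, and every point lies below 0.

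Rarg, a receptor of many embryonic tissues, was near the middle of the array in every group. Its brighter probe set (1419415_a_at) read 132, 142 and 133 in R+ against 127, 116 and 46 in R-, and 70, 145 and 142 in C+ against 138, 56 and 125 in C-. The 3 R+ arrays lay just above the 3 R- arrays, R+ overlapped C+, and C- overlapped both R- and C+. By limma 0 of 5 comparisons passed, the differences running from -0.15 ± 0.44 in R- against C- to 0.56 ± 0.44 in R+ against R- (adjusted p from 0.617 to 1.00, limma). Its other probe set (1419416_a_at) ran from 7 to 65 and did not pass the filter.

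Rara (1450180_a_at), the receptor that most cell types share, was dim here. Its signals in replicates 1, 2 and 3 were 31, 50 and 11 in R+ against 75, 6 and 68 in R-, and 58, 9 and 177 in C+ against 11, 10 and 30 in C-. Only C+ replicate 3 exceeded 107, and the groups overlapped. At this signal a difference between groups was not detectable, which does not show that the receptor was absent.

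The 3 synthesizing enzymes were at or below the middle of the array on most arrays. Aldh1a1 (1416468_at) ran from 4 to 15 on 11 arrays and reached 88 on R+ replicate 2. Aldh1a2 (1422789_at), the main enzyme of the mesoderm beside the early neural tube and of the meninges, read 6, 98 and 15 in R+ against 63, 16 and 15 in R-, and 11, 15 and 19 in C+ against 20, 73 and 195 in C-. It exceeded 107 on 1 array, C- replicate 3. In a fit without the filter, C+ against C- for Aldh1a2 was -1.69 ± 0.77 with an unadjusted p of 0.0436 and an adjusted p of 0.341 (limma). The C+ values of Aldh1a2 all lay below its C- values, though the nearest were 19 and 20. For Aldh1a1 the R- values (8 to 15) lay above the C- values (5 to 7), all far under 107. In the other comparisons of groups the ranges overlapped for both genes.

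Aldh1a3 has 3 probe sets, of which 1417642_at was the brightest. It read 81, 115 and 106 in R+ against 6, 46 and 61 in R-, and 42, 67 and 111 in C+ against 84, 191 and 72 in C-. The R+ arrays lay above the R- arrays and the C- arrays above the R- arrays, while the C+ and C- arrays overlapped. R+ against R- was 1.46 ± 0.60 (unadjusted p = 0.0300, adjusted p = 0.206) and R- against C- was -1.54 ± 0.60 (0.0235 and 0.322), so neither passed (limma). The difference of differences was 2.02 ± 0.85, with an unadjusted p of 0.0331 and an adjusted p of 0.812. The other 2 probe sets ran from 5 to 54 and from 2 to 36, and without the filter their R+ against R- differences were 0.55 ± 0.48 and -0.57 ± 0.47, which do not share a direction.

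**Figure D4:**
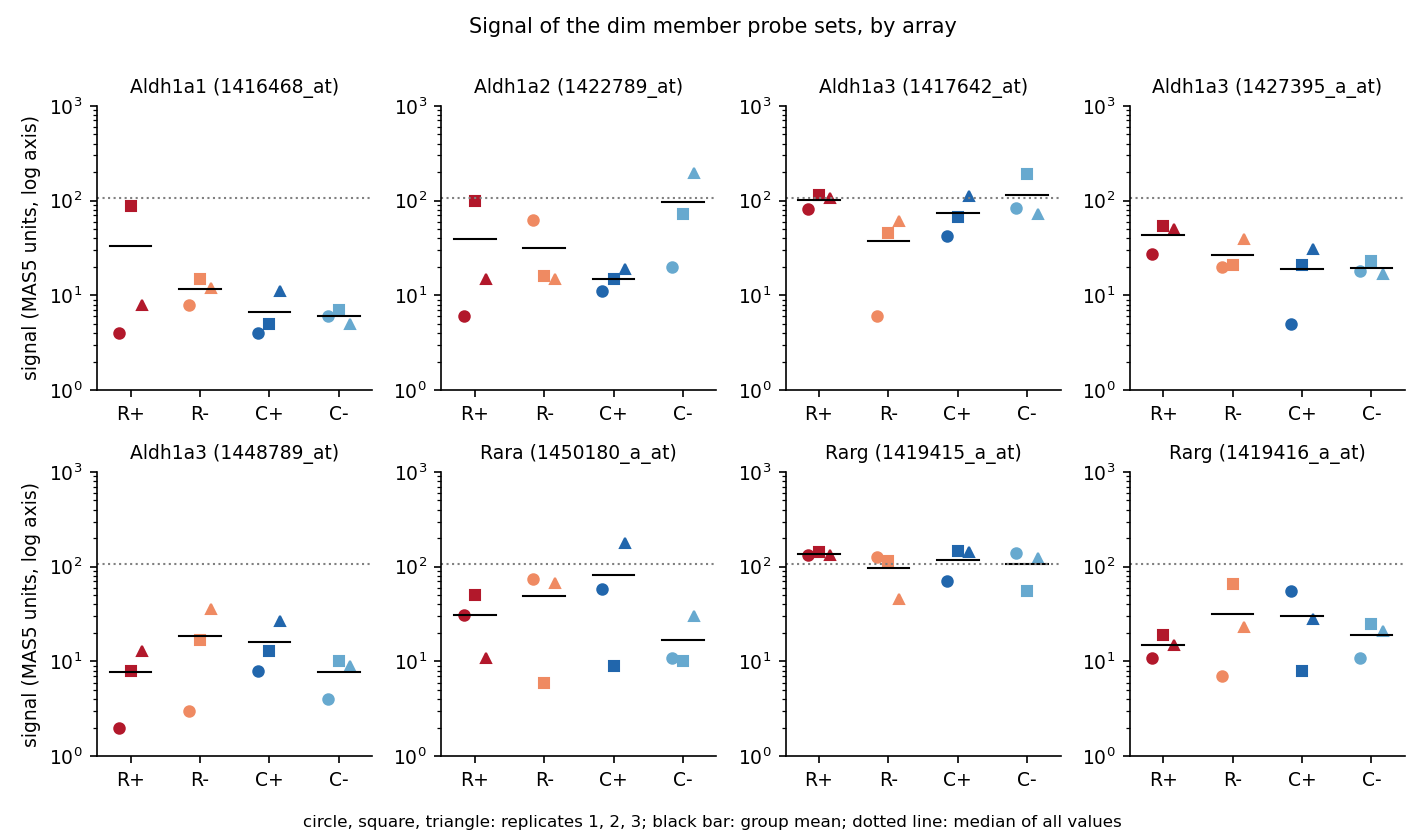
Signal on each array (log axis) for the 8 probe sets of Rara, Rarg, Aldh1a1, Aldh1a2 and Aldh1a3, with symbols, bars and dotted line as for the brighter genes. Most points lie below the median line at 107, and in each panel the replicates of at least 1 group spread over a wider range than the group means do.

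The rest of the pathway was described through a list of 62 other genes, of which 52 were on the array and 41 had a tested probe set. Each gene is represented by its brightest tested probe set, where a probe set with a name ending in _x_at counts only if there is no other. Nrip1 and Dhrs3 each stand in 2 of the lists. Over the 41, 9 were called in R+ against R-, 10 in C+ against C-, 18 in R+ against C+, 13 in R- against C- and 4 in the difference of differences, and with the replicate block the second and the last of these became 17 and 7. With the beta-actin ratio as a covariate the count in R+ against C+ fell from 18 to 9, and to 8 with the block as well. Among the brightest probe sets of all tested genes the percentages lower were 6.83, 6.24, 3.08 and 1.29 in the first 4 of those comparisons and those higher were 3.64, 4.81, 1.79 and 0.802, while 0.817% were called in the difference of differences. The lists of known responsive genes rest on other tissues, so a gene's place in a list says nothing of its control here.

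Genes of retinol uptake, storage and oxidation showed few differences. Of 7 tested, 0 were called in R+ against R- and C+ against C- (0 and 1 at an unadjusted p under 0.05, limma), and their medians were -0.20 and -0.01. Rdh10, the enzyme of the first oxidation step, had means of 385 ± 43.7, 445 ± 53.0, 467 ± 5.69 and 473 ± 61.3 in R+, R-, C+ and C- (SD, n = 3 each) and passed in no comparison. Ttr, the transthyretin that carries retinol-binding protein and is abundant in choroid plexus, was lower in both rostral groups, with means of 254 ± 172, 462 ± 48.4, 1359 ± 774 and 4226 ± 2303. R+ against C+ was -2.57 ± 0.59 (adjusted p = 0.0286) and R- against C- was -3.01 ± 0.59 (adjusted p = 0.0197), by limma. Its 3 further probe sets ran the same way: 1 passed both (-3.2 and -3.47, adjusted p = 0.0134 and 0.0124), 1 passed in R+ against C+ alone (-3.24 and -3.28, adjusted p = 0.0484 and 0.0814) and 1 passed neither (-2.43 and -2.73, adjusted p = 0.0814 and 0.0982). The 7 roof plate and choroid plexus genes on the array, Ttr included, summed to 548 to 1108 and 2266 to 3009 in R+ and R- and to 1156 to 2518 and 2719 to 7218 in C+ and C-. Most of that sum is Ttr itself in C- and Otx2 in R- (mean 1591 ± 379). Otx2 ran the opposite way, at 2.64 ± 0.54 in R+ against C+ (adjusted p = 0.0151) and 4.85 ± 0.54 in R- against C- (adjusted p = 2.17e-04, limma). The other tested genes of that list passed in neither comparison. Of the other clearance and synthesis genes, Cyp26a1, Cyp1b1 and Aldh8a1 were on the array and none passed the filter, so Cyp26b1 was the only Cyp26 enzyme tested.

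The retinoid X receptors, which pair with the Rar proteins, and Fabp5 and Ppard, an alternative carrier and receptor for retinoic acid, gave 0 calls by limma among 5 tested genes in all 5 comparisons, with 1, 2, 0, 0 and 0 at an unadjusted p under 0.05. Rxra had means of 309 ± 54.0, 350 ± 15.9, 391 ± 55.5 and 407 ± 54.1 in R+, R-, C+ and C- (SD, n = 3 each). Rxrg, the form found in a few neuron types, averaged 54 ± 41.9, 107 ± 29.5, 20 ± 19.1 and 99 ± 14.8, and its difference in C+ against C- was -2.03 ± 0.62 with an adjusted p of 0.0660.

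Among 11 tested receptor coregulators, 3 were lower in R+ than in R- and 2 lower in C+ than in C-, and none was higher. Zfp423, a zinc finger protein that binds the receptor pair, was lower in both, at -1.04 ± 0.20 (SE) rostrally (adjusted p = 0.00513) and -1.18 ± 0.20 caudally (adjusted p = 0.00194, limma). Ajuba, a LIM protein that represses receptor activity, was lower at -1.54 ± 0.29 (adjusted p = 0.00372) and -1.69 ± 0.29 (adjusted p = 0.00176). Nrip1, a ligand-dependent corepressor, was lower in R+ than in R-, at -0.71 ± 0.19 (adjusted p = 0.0330), though its other probe sets gave 0.24 and 0.03. In R+ against C+, Ncoa1, a coactivator, was lower by both of its probe sets, at -0.86 ± 0.20 (adjusted p = 0.0309) and -0.66 ± 0.15 (adjusted p = 0.0253). Nrip1 was lower there at -0.89 ± 0.19 (adjusted p = 0.0189), but its other probe sets gave 1.47 and 0.07. In R- against C-, 0 of 11 were called, with 6 at an unadjusted p under 0.05 (limma), although the dimmer Ncoa1 probe set, which this count does not use, was past the threshold at -1.0 ± 0.15 (adjusted p = 0.00260).

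Most known responsive genes, many of them Hox genes, were lower in rostral than in caudal cells. Of 20 tested, 15 were lower and 1 higher in R+ than in C+, with a median of -1.85, and 12 were lower and 0 higher in R- than in C-, with a median of -2.12. The beta-actin ratio separates the same portions, and the covariate that takes the pathway calls in R+ against C+ from 18 to 9 takes those in R- against C- from 13 to 12. In the same comparisons the medians over the brightest probe sets of all genes were -0.049 and -0.037. Hoxb5, a Hox gene of the caudal hindbrain and cord, averaged 19.3 ± 26.6, 25.3 ± 20.6, 2869.7 ± 754 and 10568 ± 487 (SD) over the 3 arrays of R+, R-, C+ and C-, and its rostral values lay under 107 on all 6 arrays. Hox genes are expressed by position along the tube, and their caudal bias is textbook knowledge. Hoxa3, Hoxb3, Hoxa4, Hoxb4, Hoxa5, Hoxb5, Hoxb6 and Hoxc4 were lower in both comparisons. The other genes lower in R- than in C- were Meis1, Tshz1, Tshz2 and Gbx2. These were also lower in R+ than in C+, as were Meis2, Nr2f1 and Nrip1. In R+ against C+ a further probe set of Tshz1 gave -0.46 ± 0.35 (adjusted p = 0.521, limma). That of Hoxa4 gave -1.26 ± 0.51 (adjusted p = 0.198), so these calls rest on the brightest probe set. Meis1, a homeobox partner of Hox proteins, was lower in R+ than in C+, at -1.99 ± 0.14 (adjusted p = 2.55e-06), and in R- than in C-, at -0.85 ± 0.14 (adjusted p = 0.00639, limma), while its other probe set gave -1.49 (adjusted p = 0.0383) and -0.81 (adjusted p = 0.411). Nr2f2, an orphan receptor, was the gene that was higher in R+ than in C+, by 1.06 ± 0.14 (adjusted p = 7.10e-04).

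Between the sorted classes, 6 of the 20 responsive genes were lower and 1 higher in R+ than in R- (median -0.73), and 8 lower and 0 higher in C+ than in C- (median -1.18). Gbx2, a homeobox gene of the anterior hindbrain and of neurons further back, was lower in both, with means of 94.7 ± 49.6, 310 ± 71.9, 304 ± 48.2 and 3589.7 ± 684 in R+, R-, C+ and C-. Its differences were -1.72 ± 0.32 (adjusted p = 0.00416) and -3.51 ± 0.32 (adjusted p = 9.12e-06, limma). Tshz1, a zinc finger gene, was also lower in both by its brightest probe set, at -0.79 ± 0.18 (adjusted p = 0.0133) and -1.47 ± 0.18 (adjusted p = 1.06e-04). Its other probe set gave 0.18 ± 0.35 rostrally (adjusted p = 0.884) and -1.42 ± 0.35 caudally (adjusted p = 0.0201), so the rostral difference rests on 1 of 2 probe sets. Only rostrally was Nr2f2 past the threshold, higher by 1.11 ± 0.14 in R+ than in R- (adjusted p = 1.82e-04) against 0.21 ± 0.14 caudally, but the test of that difference, 0.90 ± 0.20, did not pass (adjusted p = 0.0796).

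**Figure D5:**
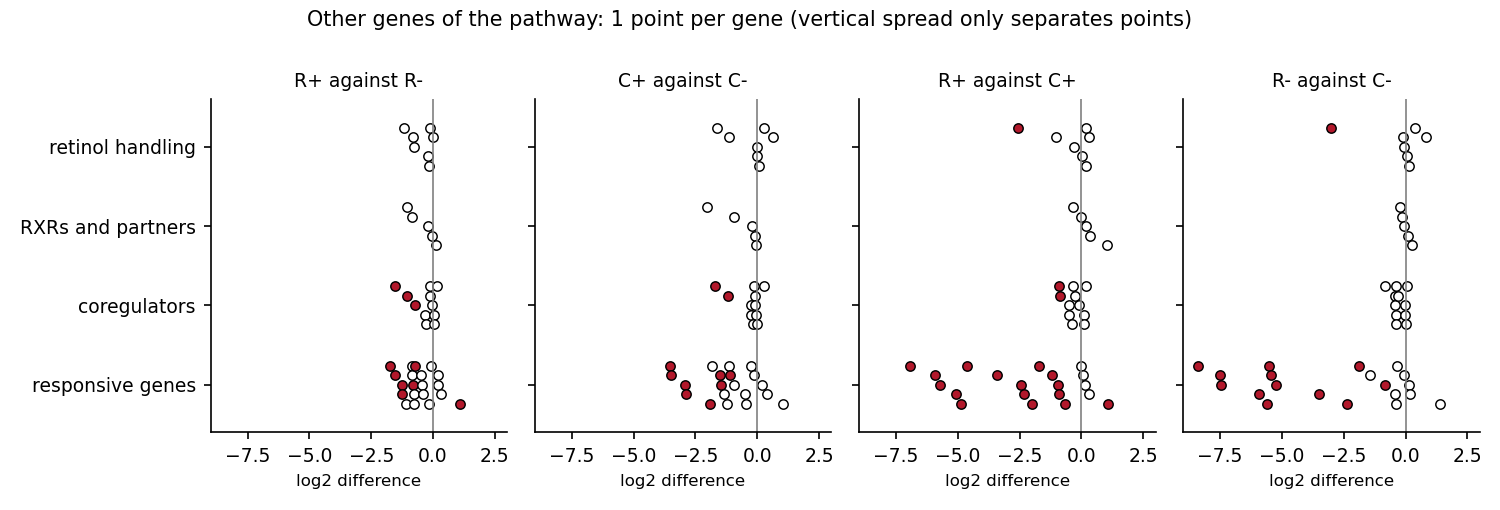
Log2 differences of the tested genes of 4 pathway lists (rows of points, 1 point per gene) in 4 comparisons (panels), with filled points past the adjusted threshold. The retinol, retinoid X receptor and coregulator lists have medians from -0.37 to 0.17, with Ttr, Ajuba, Zfp423 and, not past the threshold, Rxrg, Dhrs3 and Adh1 further out. The responsive genes, many of them Hox genes, spread downward in both comparisons of rostral with caudal cells, to medians of -1.85 and -2.12.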

How the data were processed

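The deposited table gives 1 signal intensity per probe set and array. The submitters' processing notes name MAS5, in a version not given in the sources used here. Deposited intensity values have a trimmed mean (2% off each end) of 500 on each array and medians from 93 to 121, and were not rescaled. Symbols came from the platform annotation, where 34945 probe sets have 1 symbol, 932 several and 9160 none, and 64 controls were left out. Values were taken as log2(signal + 10), 10 being the 10th percentile of all values. Probe sets over 107 on at least 3 arrays entered a limma 3.58.1 fit (R 4.3.3) with 1 mean per group over all 12 arrays and eBayes with trend, and adjusted at 0.05 within each comparison. The genes, lists and tests were chosen with earlier results of these data known. All probe sets of the 9 genes are given. For other genes the brightest probe set stands, with a name ending in _x_at only where there is no other, and genes called in any comparison could be named. Likeness is the Pearson correlation over the 12 arrays.

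Replicate numbers were taken to pair the samples, since residuals of all 18 pairs of arrays with the same number in different groups correlated over 0.1 (0.169 to 0.597), against 7 of 36 pairs with different numbers (-0.468 to 0.318). The fit has no block, and the block is 1 of 24 alternatives, beside other scalings, offsets, filters, an RNA quality covariate and arrays left out. Promoters are from RefSeq GRCm38.p6. The fit was tested on simulated data. The precision of each difference is limited by the 3 arrays per group.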

Additional observations from a re-analysis of the deposited data

Results flagged for a closer look

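In 4 responsive genes of the pathway list, the step between YFP-positive and YFP-negative cells differed between the rostral and caudal portions by limma's test of the difference of differences. Hoxb6 gave 3.09 ± 0.51 (SE, adjusted p = 0.0148): it was lower in C+ than in C- by 2.88, with rostral means of 88.7 ± 36.1 and 75.7 ± 35.5 near or under the array-wide median. Tshz2 gave 1.41 ± 0.21 (adjusted p = 0.00727), with means of 502 ± 8, 402 ± 46.0, 986 ± 135 and 2102.3 ± 97.3 in R+, R-, C+ and C- (SD, n = 3 each), but a further probe set gave 1.20 ± 0.28 with an adjusted p of 0.109. Meis1 gave -1.14 ± 0.20 (adjusted p = 0.0206), with means of 774 ± 96.3, 1870.3 ± 45.4, 3102 ± 329 and 3398 ± 422, and a further probe set gave -0.68 with an adjusted p of 1.00. Meis2 gave -1.93 ± 0.24 (adjusted p = 0.00160), with means of 3120.3 ± 332, 9168.3 ± 1732.2, 15570.7 ± 2751.8 and 11847 ± 1718.6. Its 3 further probe sets gave -2.22, -2.24 and -2.24, with adjusted p of 0.0144, 0.161 and 0.00326. Hoxa5 was not called by its brightest probe set, at 2.41 ± 1.06 (adjusted p = 0.857). Its other probe set, with a name ending in _x_at, was past the threshold at 2.78 ± 0.49 (adjusted p = 0.0206, limma). Of all genes 0.817% were called in this comparison. Groups of 3 arrays are too small to test a single array as an outlier.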

How the results depend on the processing

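Over 24 alternatives the calls of Crabp1, Crabp2 and Cyp26b1 between sorted classes all held, with Crabp1 from -3.67 to -2.92 rostrally and -3.46 to -3.03 caudally, Crabp2 from -2.74 to -2.26 and -2.92 to -2.56, and Cyp26b1 from -1.02 to -0.80 and -1.33 to -1.06. Crabp1 between portions was lost with the beta-actin covariate, alone and with the block, leaving 0 members called in each comparison of portions; the other 22 alternatives kept it. The replicate block changed no call on the 9 genes except Rarb in R- against C-. Members called in R- against C- became 2 with an offset of 50 and with the block, adding Rarb.

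Counts over all probe sets moved more. Scaled to 1 median, R+ against C+ had 534 calls and the pathway difference of differences 2; the split of R- against C- became 129 higher and 138 lower in place of 139 and 250, and that of the difference of differences 27 and 74 in place of 50 and 86. Without trend these counts were 639 and 81 for all probe sets in R+ against C+ and the difference of differences, and 2 for the pathway. With the replicate block all counts were 3740, 4279, 4327, 1770 and 419, and the pathway counts 17 and 7. With the covariate R+ against C+ had 227 calls, R- against C- 191 and the pathway 9 in R+ against C+. With block and covariate the counts were 3567, 4226, 158, 150 and 366, and for the pathway 17 in C+ against C-, 8 in R+ against C+ and 8 in the difference of differences. The causes were not tested.

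Leaving out 1 array, or replicate 1 of every group, gave 1277 to 2229 calls in R+ against R-, 1429 to 2491 in C+ against C-, 393 to 2624 in R+ against C+, 204 to 472 in R- against C- and 68 to 203 in the difference of differences. Members called were 3 to 3, 3 to 4, 1 to 2, 1 to 2 and 0 to 1, and pathway genes 7 to 11, 9 to 13, 13 to 19, 12 to 14 and 2 to 5, the 2 without R- replicate 3 and without C- replicate 3. R+ against C+ moved most, to 2271 without C+ replicate 1 and 393 without C+ replicate 2.

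Signs turned only in differences that had not passed. In R- against C-, Cyp26b1 was 0.02 scaled to 1 median and 0.02 with block and covariate, Crabp2 was -0.01 with the covariate, and Rarg was 0.37 with the covariate and 1.34 with block and covariate; Aldh1a3 in R+ against C+ was -0.52 with block and covariate. With 1 array or replicate 1 left out, the ranges that crossed 0 were -0.69 to 0.45 for Rarb in R+ against R-, -0.81 to 0.31 for Rarb in R+ against C+, -0.24 to 0.05 for Cyp26b1 in R- against C-, -0.36 to 0.39 for Crabp1 and -0.03 to 0.53 for Crabp2 in the difference of differences, and for Rarg -0.19 to 0.70 in C+ against C-, -0.08 to 0.40 in R+ against C+, -0.52 to 0.26 in R- against C- and -0.02 to 0.75 in the difference of differences. Signals near 107 and below, which hold Rara, Aldh1a1 and Aldh1a2, allow no reading of small differences.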
